A study of Mus musculus with 4 samples.

Results

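The 10 genes described here are Foxp3, Il2ra, Ctla4, Pdcd1, Icos, Tigit, Lag3, Tnfrsf4, Tnfrsf18 and Cd274, of 31053 genes in the matrices, listed by name as genes of regulatory T (Treg) cells and of immune checkpoints. They were followed in 4 single-cell RNA-seq libraries, 1 per group. The tumor libraries came from subcutaneous grafts of MycCaP, a prostate cancer cell line derived from HiMyc mice. The subcutaneous adipose tissue (SAT) libraries came from the stromal/vascular fraction of inguinal fat. All mice had the genotype given as VFB and were fed chow, and each tissue had 1 control library (PBS) and 1 library from mice given D-CAN, a peptide that homes to adipose stromal cells (ASC) and depletes them. Mouse age is not given in the sources used here, and neither is whether a library pooled several mice. Dead cells and red blood cells were removed before capture, and single-cell 3′ libraries were counted as unique molecular identifiers (UMIs), so that 1 UMI stands for 1 captured transcript.

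FOXP3 is the transcription factor that sets the Treg programme, and IL2RA (CD25) is the chain of the interleukin-2 receptor that gives Treg cells their high affinity for interleukin-2. CTLA4, PD-1 (Pdcd1), TIGIT and LAG3 are receptors that dampen T cells, whereas ICOS, OX40 (Tnfrsf4) and GITR (Tnfrsf18) are costimulatory receptors that Treg cells also carry. PD-L1 (Cd274) is the ligand of PD-1, which macrophages, endothelial cells and tumor cells can display, and adipose tissue is known for a Treg population of its own.

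Cells with at least 200 genes numbered 2761 in tumor control, 1487 in tumor D-CAN, 2841 in SAT control and 1897 in SAT D-CAN. Library totals ranged from 6667064 to 17996284 UMIs, and the median cell from 1707 to 5232 UMIs. T cells were taken as Cd3+ cells, those with at least 2 UMIs over Cd3d, Cd3e and Cd3g, the genes of the CD3 complex of the T cell receptor. Only 9 cells passed in tumor control (0.326%, 95% exact Clopper-Pearson interval 0.149 to 0.618) and 14 in tumor D-CAN (0.941%, 0.516 to 1.57). SAT control held 633 Cd3+ cells (22.3%, 20.8 to 23.9) and SAT D-CAN 672 (35.4%, 33.3 to 37.6). The tumor values therefore rest on 17476 and 33640 UMIs in Cd3+ cells, against 2104086 and 2814426 in SAT, and the intervals throughout cover counting error only. With 1 library per tissue and treatment, control and D-CAN libraries were not tested against each other within a tissue, where treatment and library cannot be told apart.

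Many Cd3+ cells carried neither Cd4 nor Cd8 transcripts in this shallow readout. In SAT control 109 were Cd4+, 190 Cd8+, 5 both and 329 neither, and in SAT D-CAN the numbers were 127, 212, 8 and 325. In tumor control the subsets held 0 Cd4+ cells, 1 Cd8+ cell and 8 with neither, and in tumor D-CAN 6, 2 and 6. Of the Cd3+ cells, 8, 14, 609 and 668 lay in clusters named as leukocytes, in the order tumor control, tumor D-CAN, SAT control and SAT D-CAN. Some SAT clusters had genes from a list of lymph node markers among their leading genes. These were Glycam1 in a cluster of 133 endothelial-like cells, Cxcl13 in a cluster of 243 fibroblast-like cells, and Fcer2a and Cr2 in B cell-like clusters. Whether SAT Cd3+ cells came from fat or from a lymph node was not tested. With 10 principal components the tumor had no T cell cluster of its own, and 8 of 9 and 14 of 14 of its Cd3+ cells sat inside the macrophage-like clusters. With 20 components, a setting chosen after seeing the data, it had a T/NK-like cluster of 23 and 29 cells, which held 7 of 9 and 14 of 14 Cd3+ cells.

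At least 1 of the 10 genes was detected in 302 of 633 Cd3+ cells of SAT control (47.7%) and 326 of 672 of SAT D-CAN (48.5%). At least 3 were detected together in 91 (14.4%) and 88 (13.1%) of them. In the tumor, 6 of 9 and 12 of 14 Cd3+ cells held at least 1, and 4 and 7 held at least 3. Tigit was the exception among the genes: it was seen in 0 tumor cells, in 2 SAT control cells and in 3 SAT D-CAN cells of any kind, so that nothing further could be measured for it.

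Foxp3 transcripts were found in 0, 1, 32 and 45 Cd3+ cells of tumor control, tumor D-CAN, SAT control and SAT D-CAN. The share was 5.06% (3.48 to 7.06) in SAT control and 6.70% (4.93 to 8.86) in SAT D-CAN, and the 2 intervals overlapped. In tumor control, 0 of 9 cells allows a share of cells with a Foxp3 UMI of up to 33.3%, so a difference in that share between tumor and SAT was not detectable, and the limit says nothing of cells that express the gene below detection. Among fibroblast-, endothelial- and perivascular-like cells without a Cd3 UMI, which should lack the gene, Foxp3 was seen in 0.341%, 0%, 0.107% and 0% of cells, so that the SAT shares lay above that background.

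Il2ra was found in 2 of 9 (22.2%), 6 of 14 (42.9%), 44 of 633 (6.95%) and 49 of 672 (7.29%) Cd3+ cells in the same order. Its level was 286, 297, 56.6 and 41.9 counts per 1e6 UMIs (CPM), resting on 5 and 10 UMIs in the tumor libraries. Both tumor levels lay above both SAT levels. In the background cells its share was 0.341%, 0%, 1.60% and 3.82%. The whole SAT perivascular-like class, with 3 Cd3+ cells in control and 0 in D-CAN, had Il2ra in 9 of 169 cells (5.33%) and 8 of 46 cells (17.4%, at a median of 4926 UMIs). Il2ra is therefore not confined to T cells in SAT.

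Among the inhibitory receptors, Ctla4 was in 4, 4, 131 and 113 Cd3+ cells, that is 44.4%, 28.6%, 20.7% and 16.8%. The 2 SAT shares had overlapping intervals (17.6 to 24.1 and 14.1 to 19.9). Pdcd1 was in 2, 3, 23 and 16 cells (22.2%, 21.4%, 3.63% and 2.38%), and its level was 114, 178, 17.1 and 11.4 CPM, from 2 and 6 UMIs in the tumor. Lag3, which binds MHC class II, was in 0, 2, 16 and 13 cells (2.53% and 1.93% in SAT). Pdcd1 was therefore scarce in SAT T cells, and its tumor levels, although higher, stood on single-digit counts.

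Among the costimulatory receptors, Tnfrsf18 was in 4, 8, 143 and 171 Cd3+ cells (44.4%, 57.1%, 22.6% and 25.4%) and Tnfrsf4 in 5, 6, 83 and 88 (55.6%, 42.9%, 13.1% and 13.1%). Icos was in 2, 4, 145 and 143 (22.2%, 28.6%, 22.9% and 21.3%). Tnfrsf18 measured 286, 505, 105 and 106 CPM and Tnfrsf4 401, 357, 84.6 and 112.3 CPM, so both genes were higher in both tumor libraries than in both SAT libraries. Icos measured 114, 149, 146 and 132 CPM, with tumor and SAT overlapping. Cd274 was in 1, 1, 30 and 47 Cd3+ cells, 4.74% in SAT control and 6.99% in SAT D-CAN. In the same background cells of SAT, Icos and Tnfrsf18 stood at 0.640% and 0.320% in control and at 0% and 0.347% in D-CAN, while Cd274 stood at 3.62% and 13.5%, so that its share in Cd3+ cells does not mark it as a T cell gene here.

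**Figure D1:**
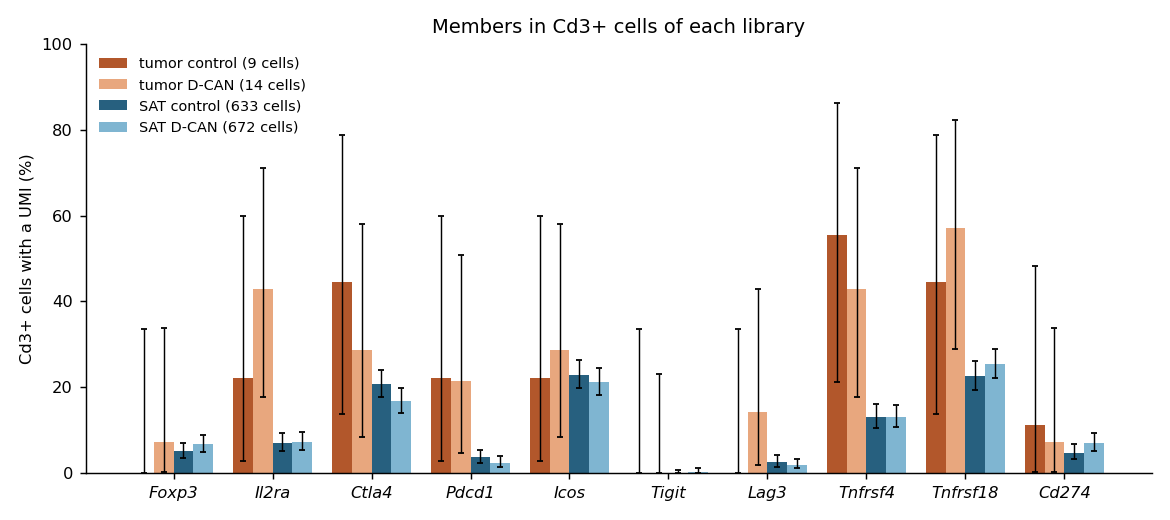
Share of Cd3+ cells with at least 1 UMI of each gene (y axis, percent) in the 4 libraries, with 95% exact binomial intervals as bars. The SAT libraries sit close together for each gene, and the tumor points, from 9 and 14 cells, have wide intervals.

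Cell depth was part of these shares. The median Cd3+ cell had 966, 1578.5, 2986 and 3734 UMIs, and after each cell was thinned to 1000 UMIs 4, 11, 584 and 639 cells remained. At that depth Foxp3 was in 0%, 0%, 2.05% and 3.13% of cells and Il2ra in 25.0%, 18.2%, 4.28% and 2.82%. Tnfrsf4 was in 25.0%, 27.3%, 6.16% and 6.42% and Tnfrsf18 in 25.0%, 45.5%, 9.76% and 10.3%. The shares of these 3 receptors were still higher in the tumor libraries, on 1 to 5 cells each. A value of 25.0% is 1 of 4 cells, with an interval of 0.631 to 80.6 that holds the SAT shares. Ctla4 was also higher in tumor (75.0%, 18.2%, 11.6% and 9.55%). Icos (0%, 0%, 12.3% and 9.23%) was not, and Pdcd1 (0%, 18.2%, 1.88% and 0.469%) was higher in tumor D-CAN only.

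The first question was whether T cells of the tumor and of SAT differed in these genes. Over the summed counts of Cd3+ cells, with treatment as a term, edgeR's quasi-likelihood test with Benjamini-Hochberg adjustment called 302 of 10310 genes (2.93% of those tested), 22 higher (0.213%) and 280 lower (2.72%) in tumor, and 818 at an unadjusted p under 0.05. None of the 9 of the 10 genes that could be tested was called, Tigit being too sparse. The log2 fold changes (tumor over SAT) were 2.43 for Pdcd1, 1.52 for Il2ra, 0.85 for Tnfrsf18, 0.82 for Tnfrsf4, -0.47 for Ctla4 and -1.11 for Icos. Foxp3, Lag3 and Cd274 had 1, 2 and 2 UMIs over both tumor libraries, too few for a fold change to be read. The median of the 9 fitted values was 0.82, beside -1.39 over all genes tested. The smallest adjusted p among them was that of Il2ra, 0.269 by edgeR with Benjamini-Hochberg adjustment, and Pdcd1 followed with 0.429.

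This result depended on the fit's scaling, and on other settings given below. The TMM factors, edgeR's correction for composition, moved the median of all genes to -1.39, against -0.30 without them. Without them 3 of the genes were called higher in tumor: Il2ra (2.62, edgeR adjusted p = 0.00211), Tnfrsf18 (1.95, adjusted p = 0.00365) and Tnfrsf4 (1.91, adjusted p = 0.00860). Ctla4 changed sign, from -0.47 to 0.64, and Icos moved from -1.11 to -0.02. The newer edgeR fit, added after seeing the data, called 0 genes in this comparison, in place of 302. On simulated counts the main fit called 3 of 200 changed genes with the right sign, beside 5 unchanged genes, and shifted deep unchanged genes by -0.89. Without TMM factors it called 5, beside 0 unchanged genes. An absence of calls here therefore cannot show that levels were equal, and a call alone cannot show that they differed.

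Outside the 10 genes, the lowest in tumor were Fosb, Satb1, Foxp1, Ccr7 and Dapl1. Each had 0 UMIs in both tumor libraries and between 392 and 1140 UMIs, or 186 to 405 CPM, in each SAT library. The tumor sums held only 17476 and 33640 UMIs, against 2104086 and 2814426 in SAT, and the part of depth in these zeros was not tested. Ctla4, at 178 and 142 CPM in SAT control and SAT D-CAN, had 7 and 5 UMIs in tumor control and tumor D-CAN. Ccr7 guides naive T cells to lymph nodes, and of the naive and memory T cell list 9 of 10 genes were lower and 0 higher (3 lower and 0 higher without TMM factors). Satb1 is also on the Treg partner list, of which 2 of 19 genes were lower and 0 higher, and 1 lower and 2 higher without TMM factors. The highest were Cxcl9, Retnlg, Penk, Gm26870 and Ccl17. Cxcl9, Gm26870 and Ccl17 had 11, 38 and 14 UMIs in tumor control and 0 in tumor D-CAN, while Penk had 9 and 5. Retnlg, a neutrophil gene, had 50 UMIs in tumor control, 0 in tumor D-CAN, 0 in SAT control and 87 in SAT D-CAN. Neutrophil markers summed to 395 UMIs over the Cd3+ cells of tumor control, where 1 cell had at least 2 of them, and to 3096 over those of SAT D-CAN, where 3 cells did, beside 0 and 11 in the other libraries, and their part in these calls was not tested.

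D-CAN was compared with control over both tissues in the same fit. The tumor sums held 17476 and 33640 UMIs, against 2104086 and 2814426 in SAT. The fit's D-CAN values therefore rest mostly on the SAT libraries, 1 per treatment, where treatment and library cannot be told apart. It called 18 of 10310 genes (0.175%; 94 at an unadjusted p under 0.05), 6 higher (0.0582%) and 12 lower (0.116%), and none of the 9 genes tested, whose adjusted p was 0.9995 in each case by edgeR's quasi-likelihood test with Benjamini-Hochberg adjustment. The genes called higher included the neutrophil genes Ltf, Ngp and Camp, with 138, 225 and 250 UMIs in SAT D-CAN and 0 in SAT control. In the tumor they had 1, 3 and 4 UMIs in control and 0 in D-CAN. Ube2c and Lcn2 followed them. The lowest were Myl9, Ccl17, Cxcl13, Tagln and Tpm2, of which Tagln, a smooth muscle gene, had 119 UMIs in SAT control and 3 in SAT D-CAN. Myl9, Tagln and Tpm2 had 0 UMIs in both tumor libraries. Perivascular markers summed to 335 UMIs over the Cd3+ cells of SAT control, where 6 of 633 cells had at least 2 of them. Their part in these calls was not tested. Within SAT, where the counts were largest, the log2 ratio of D-CAN to control with its counting interval was 0.08 (-0.47 to 0.65) for Foxp3 and 0.01 (-0.24 to 0.27) for Tnfrsf18. It was -0.33 (-0.53 to -0.12) for Ctla4, -0.43 (-0.81 to -0.05) for Il2ra and 0.41 (0.14 to 0.68) for Tnfrsf4. These last 3 intervals left out 0, but they cover counting in 2 libraries and not the spread between mice. Of the 316 Tnfrsf4 UMIs in SAT D-CAN, 25 came from 1 cell, beside at most 10 of 178 from a cell of SAT control. DESeq2, the newer edgeR fit and a gate of 1 Cd3 UMI each called 0 genes in this comparison. In tumor the intervals were wide, such as -1.43 (-3.43 to 0.44) for Ctla4 and 0.82 (-0.68 to 2.61) for Tnfrsf18.

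The cells with a Foxp3 transcript carried the other Treg genes far more often than their neighbours did. Of all cells with Foxp3, 3, 1, 42 and 50 in the 4 libraries, the Cd3+ gate took 0, 1, 32 and 45, or 76.2% and 90.0% in SAT. In SAT control 10 of the 32 were Cd4+, 4 Cd8+ and 18 neither, and in SAT D-CAN 14 of 45 were Cd4+, 1 Cd8+, 2 both and 28 neither. Most were seen by 1 Foxp3 UMI (24 and 28 cells), so a cell without a Foxp3 UMI is not shown to lack the transcript. Their median depth was 2971.5 UMIs against 2986 for the rest of the Cd3+ cells in SAT control, and 4369 against 3712 in SAT D-CAN.

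Among Cd3+ cells without Cd8, 28 of 438 in SAT control and 42 of 452 in SAT D-CAN held Foxp3. In SAT control Ctla4 was in 89.3% of the Foxp3+ and 17.6% of the Foxp3- cells, Tnfrsf4 in 78.6% and 12.9%, and Icos in 71.4% and 21.2%. Tnfrsf18 was in 67.9% and 20.7%, and Il2ra in 42.9% and 7.07%. SAT D-CAN gave the same direction for each gene: 78.6% and 13.2% for Ctla4, 71.4% and 12.0% for Tnfrsf4, 66.7% and 19.5% for Icos, 76.2% and 21.7% for Tnfrsf18, and 38.1% and 6.59% for Il2ra. At least 3 of these 5 genes were together in 23 of 28 and 30 of 42 Foxp3+ cells, but in only 37 of 410 and 38 of 410 Foxp3- cells. Pdcd1 (14.3% and 3.41% in SAT control, 7.14% and 2.44% in SAT D-CAN) and Lag3 (3.57% and 1.71%, 4.76% and 1.71%) were in few cells of either kind.

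**Figure D2:**
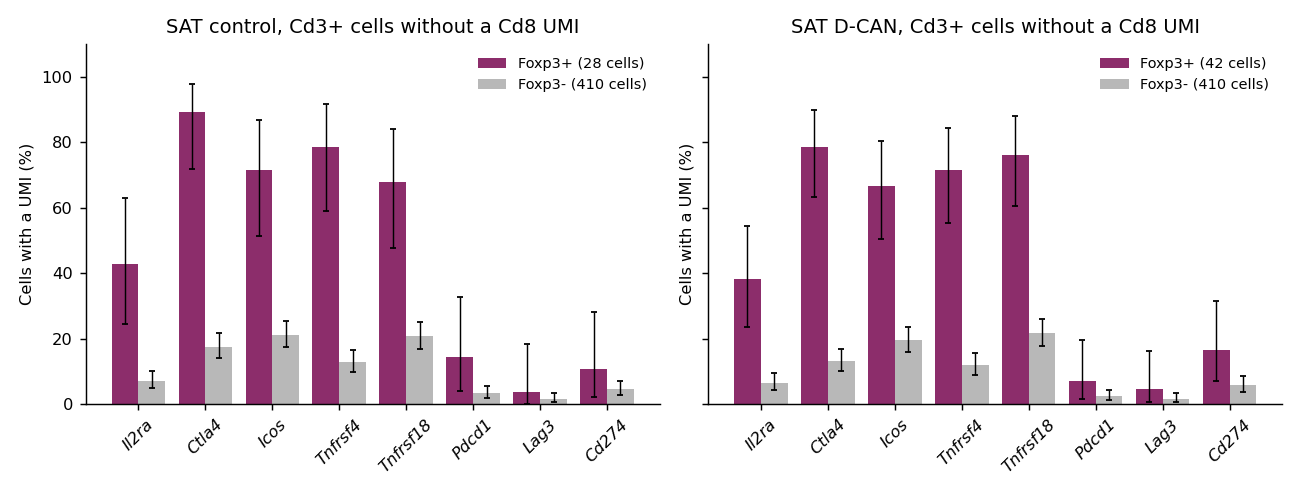
Share of Foxp3+ and Foxp3- cells (y axis, percent) with at least 1 UMI of each gene, among Cd3+ cells without Cd8 in SAT control and SAT D-CAN, with 95% exact binomial intervals. Ctla4, Tnfrsf4, Icos, Tnfrsf18 and Il2ra stand higher in Foxp3+ cells in both libraries, while the Pdcd1, Lag3 and Cd274 shares are low in both kinds of cell.

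The summed counts of these cells gave the same picture on the level scale. Il2ra measured 530 CPM in Foxp3+ and 44.6 CPM in Foxp3- cells of SAT control, and 277 and 28.1 CPM in SAT D-CAN. Ctla4 measured 954 and 160, and 620 and 120 CPM. Tnfrsf4 measured 574 and 81.2, and 620 and 89.0 CPM, and for all 3 genes the Foxp3+ sums lay above the Foxp3- sums in each library.

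With the library as a block and 2 libraries per arm, edgeR's quasi-likelihood test with Benjamini-Hochberg adjustment called 5 of the 8 genes tested higher and 0 lower, where 6.13% of 9517 genes were called, 2.07% higher and 4.06% lower. The log2 fold change was 3.03 ± 0.25 (SE) for Il2ra (edgeR adjusted p = 2.9e-31), 2.41 ± 0.20 for Tnfrsf4 (2.15e-29) and 2.07 ± 0.19 for Ctla4 (2.42e-26). It was 1.80 ± 0.21 for Tnfrsf18 (5.68e-15) and 1.52 ± 0.20 for Icos (1.28e-12), each adjusted by Benjamini-Hochberg in the same edgeR fit. Pdcd1 (0.68 ± 0.60, edgeR adjusted p = 0.713), Cd274 (0.59 ± 0.58, 0.746) and Lag3 (0.32 ± 1.14, 0.961) were not called. The median of the 8 was 1.66, against -0.17 over all genes. The fit had 1 residual degree of freedom and used a variance shared over genes, so its p does not measure a gene's own spread. In edgeR's newer quasi-likelihood fit the 5 calls held with adjusted p between 0.0218 and 0.0489. Among Cd4+ cells only, Icos was not called (1.18, edgeR adjusted p = 0.0811).

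The wider Treg lists moved with Foxp3 as well. These lists were chosen from known biology with earlier results of these data in view. Of 19 tested Treg partner genes, 9 were higher and 1 lower (median 1.27). The highest was Entpd1 (CD39, an ectoenzyme that degrades ATP), with 4 and 11 UMIs in the Foxp3+ sums and 4 and 3 in the much larger Foxp3- sums. Ikzf2 (Helios, an Ikaros family factor of thymic Treg cells) had 145 and 238 UMIs in the Foxp3+ and 254 and 221 in the Foxp3- sums, and it rose by 2.33 on the log2 scale (edgeR, Benjamini-Hochberg adjusted p = 8.5e-40). Itgae (CD103), Tnfrsf9 (4-1BB) and Il2rb rose by 2.18, 2.10 and 1.27. Satb1, a chromatin organizer of naive T cells, was the member that fell, by 2.72. Of 10 adipose Treg genes, 5 were higher and 0 lower (median 1.40): Klrg1 by 2.99, Prdm1 (Blimp-1) by 2.45, Areg (amphiregulin, a tissue-repair growth factor) by 1.92, Ccr2 by 1.86 and Rora by 0.94. The others of that list, Pparg, Il1rl1, Gata3, Cxcr6 and Dgat1, were not called.

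The naive and cytotoxic lists went the other way. Of the 438 and 452 Cd3+ cells without Cd8 in SAT control and SAT D-CAN, 109 and 127 held a Cd4 UMI. The Foxp3- cells are therefore not shown to be Cd4+ T cells, and the part of other cells in these lists was not tested. Of 10 naive and memory genes 8 were lower in Foxp3+ cells and 1 higher (median -1.39; 5 lower and 1 higher without TMM factors). Tcf7, a factor of naive and memory T cells, fell by 2.83 and its relative Lef1 by 2.03, while Cd44, an adhesion receptor of antigen-experienced T cells, rose by 0.92. Of 9 cytotoxic effector genes 5 were lower and 1 higher (median -3.20). Ccl5, a chemokine of cytotoxic cells, had 3 and 9 UMIs in Foxp3+ and 1129 and 1134 in Foxp3- cells, and Ifng (interferon-gamma) 1 and 1 against 120 and 123. Gzmb (granzyme B), a protease of cytotoxic granules, rose by 3.32, with 20 and 9 UMIs in Foxp3+ and 15 and 5 in Foxp3- cells. Xcl1 was at 0 UMIs in Foxp3+ cells of both libraries, beside 56 and 138 UMIs in Foxp3- cells. Besides Entpd1 and Gzmb, the highest genes outside the 10 were Hist1h2ap, Neb and Car5b, each under 20 UMIs in any sum, and the lowest were Camp, Ngp, Xcl1, Ltf and Klrd1. Camp, Ngp and Ltf, neutrophil granule genes, had 250, 225 and 138 UMIs in the Foxp3- cells of SAT D-CAN and 0 in the 3 other sums.

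Of the other lists, the further checkpoint and exhaustion genes had 3 higher and 2 lower of 17 (median -0.12), among them Cd200r1 (1.92) and Tox (1.06) higher. The checkpoint ligands had 0 called of 9. The interferon-gamma response list had 1 higher, Cxcl10 (1.38), and 1 lower, Jak1 (-0.72), of 14.

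The promoter sequences of the 3 genes with the largest fold changes beside Foxp3, and of Cd274 for contrast, are shown because NFAT, the calcium-dependent factor of T cell activation, acts together with FOXP3 on such genes. Each is the 250 bases before the transcription start in the RefSeq table of GRCm38.p6, on the plus strand, with matches to the NFAT core GGAAA in capitals; on the minus strand the core reads TTTCC. The Il2ra window is chr2:11642542-11642791, that of Ctla4 chr1:60908775-60909024, that of Tnfrsf4 chr4:156013445-156013694 and that of Cd274 chr19:29367188-29367437. All 250 bases of the Ctla4 window lie inside the annotated span of Ctla4, outside its exons. The Il2ra, Tnfrsf4 and Cd274 windows overlap none of the 10 genes.
Il2ra: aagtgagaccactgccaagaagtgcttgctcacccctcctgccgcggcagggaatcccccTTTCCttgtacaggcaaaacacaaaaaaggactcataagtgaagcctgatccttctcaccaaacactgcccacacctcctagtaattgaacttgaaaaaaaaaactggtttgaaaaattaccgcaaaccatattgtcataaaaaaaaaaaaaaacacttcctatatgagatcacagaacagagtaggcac
Ctla4: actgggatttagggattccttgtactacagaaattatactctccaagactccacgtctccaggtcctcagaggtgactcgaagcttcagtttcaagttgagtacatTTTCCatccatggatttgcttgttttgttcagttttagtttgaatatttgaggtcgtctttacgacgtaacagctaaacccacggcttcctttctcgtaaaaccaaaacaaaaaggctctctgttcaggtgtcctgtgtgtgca
Tnfrsf4: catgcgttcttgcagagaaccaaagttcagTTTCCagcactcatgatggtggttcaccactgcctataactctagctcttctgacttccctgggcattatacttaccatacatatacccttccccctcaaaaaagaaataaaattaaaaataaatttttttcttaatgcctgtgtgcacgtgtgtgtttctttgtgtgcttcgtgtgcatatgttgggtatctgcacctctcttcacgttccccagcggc
Cd274: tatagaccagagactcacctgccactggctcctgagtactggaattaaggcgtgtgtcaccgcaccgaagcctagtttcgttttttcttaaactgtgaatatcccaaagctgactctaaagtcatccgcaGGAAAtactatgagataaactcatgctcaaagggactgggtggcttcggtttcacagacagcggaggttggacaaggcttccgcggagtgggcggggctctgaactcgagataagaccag
Each of the 4 windows held 1 match, and each of the 9 windows found for 8 of the 10 genes held at least 1, as did 55.6% of all 32851 windows of that length. The forkhead letters TGTTTAC were in none of the 9, beside 3.17% of all windows. The STAT letters TTCNNNGAA, searched on both strands like the others, were in the Tnfrsf18 window and in 1 of 2 Foxp3 windows, beside 7.02% of all windows. Both Foxp3 windows lie inside the annotated gene, 1 of them with 109 exon bases, and the Tnfrsf18 window holds 158 exon bases. A match describes these letters only, and NFAT binding was not measured.

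Some of the genes are also neighbours. In the GRCm38 annotation Ctla4 (chr1:60887000-60915832, plus strand) and Icos (chr1:60977927-61000320, plus strand) lie 62.1 kb apart, and Tnfrsf4 (chr4:156013843-156016612) and Tnfrsf18 (chr4:156026164-156028895) 9.55 kb apart on the same strand. Foxp3 lies at chrX:7573644-7595245, Il2ra at chr2:11642807-11693193, Pdcd1 at chr1:94038305-94052553, Lag3 at chr6:124904361-124911705, 16.1 kb from Cd4, and Cd274 at chr19:29367455-29388095. Ctla4 and Icos were detected together in 72 Cd3+ cells of SAT control and 64 of SAT D-CAN, where the product of their shares gives 30.01 and 24.05 cells. Tnfrsf4 and Tnfrsf18 were together in 41 and 56 cells, beside 18.8 and 22.4. Pairs that lie far apart, such as Il2ra and Ctla4 (32 and 28 cells, beside 9.11 and 8.24), exceeded the product too.

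The Cd4+ and Cd8+ subsets of SAT differed in the same genes. Cd4+ cells carried 78.7 and 62.2 CPM of Il2ra in SAT control and SAT D-CAN, against 5.47 and 3.83 CPM in Cd8+ cells. Tnfrsf4 stood at 194 and 196 CPM in Cd4+ cells and 17.8 and 28.7 in Cd8+ cells, and Foxp3 at 41.8 and 28.7 against 5.47 and 0.958. Icos stood at 219 and 193 against 73.8 and 39.3 CPM, Ctla4 at 209 and 179 against 92.9 and 60.3, and Tnfrsf18 at 162 and 132 against 65.6 and 51.7. In each of these genes both Cd4+ values lay above both Cd8+ values. Cells with neither Cd4 nor Cd8 were in between for Foxp3 in SAT control (28.8 CPM) but not in SAT D-CAN (42.9 CPM), and they carried 234 and 190 CPM of Ctla4.

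The edgeR quasi-likelihood test with Benjamini-Hochberg adjustment, over 2 libraries with the library as a block, called 7 of the 9 genes tested lower in Cd8+ cells and 0 higher, where 6.77% of 9085 genes were called, 3.37% lower and 3.4% higher. The log2 fold changes (Cd8+ over Cd4+) were -3.67 ± 0.44 (SE) for Il2ra (edgeR adjusted p = 8.64e-15), -3.32 ± 0.61 for Foxp3 (2.25e-06) and -2.80 ± 0.25 for Tnfrsf4 (1.35e-27). Icos (-1.71 ± 0.21, 1.68e-14), Ctla4 (-1.16 ± 0.20, 2.67e-07), Tnfrsf18 (-1.12 ± 0.22, 1.65e-05) and Pdcd1 (-1.76 ± 0.52, 0.0145) followed, with Benjamini-Hochberg adjusted p from the same edgeR fit. The median of the 9 was -1.71, against -0.01 over all genes. Lag3 (0.35) and Cd274 (-0.07) were not called (edgeR adjusted p = 0.883 and 0.974). With the 178 cells of highest doublet score left out over the 4 libraries, 4 calls were lost at similar fold changes: Foxp3 (-3.32, edgeR adjusted p = 0.0852), Ctla4 (-1.18, 0.0530), Tnfrsf18 (-0.99, 0.0959) and Pdcd1 (-1.52, 0.321).

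**Figure D3:**
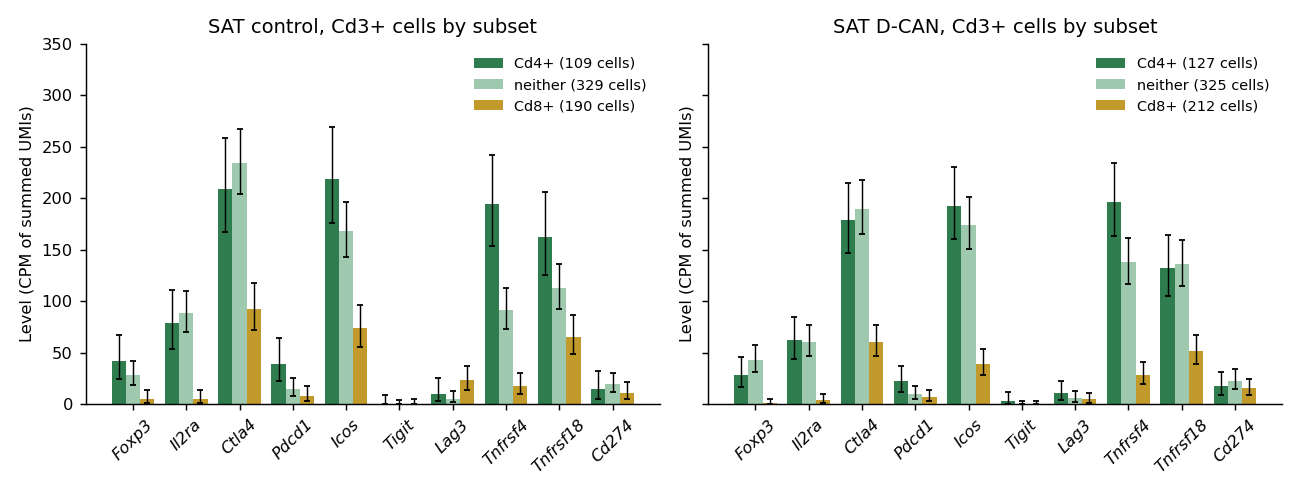
Level of each gene (y axis, CPM of the summed UMIs) in the Cd4+, Cd8+ and neither subsets of Cd3+ cells in SAT control and SAT D-CAN. Foxp3, Il2ra, Ctla4, Icos, Tnfrsf4 and Tnfrsf18 are lower in Cd8+ than in Cd4+ cells in both libraries.

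Around them, the Treg partner list had 6 genes lower and 1 higher of 18 in Cd8+ cells, with Ikzf2, Ikzf4, Capg and Izumo1r among the lower and Satb1 the higher. The adipose Treg list had 6 lower and 0 higher of 9, including Il1rl1 (ST2, the interleukin-33 receptor), Klrg1, Areg and Gata3. Cytotoxic effector genes had 5 higher and 0 lower of 8 (Xcl1, Nkg7, Ccl4, Prf1 and Ifng). The highest genes outside the 10 were Tagln, Samd3, Klra1, Myh11 and Eomes. Eomes, a factor of cytotoxic T cells, had 77 and 61 UMIs in Cd8+ cells against 0 and 1 in Cd4+ cells, whereas Tagln (61 UMIs) and Myh11 (32 UMIs), smooth muscle genes, were in the Cd8+ sum of SAT control alone. The lowest were S100a8, Pdlim4, Ccl22, Igfbp3 and Stfa3. S100a8 (64 UMIs) and Igfbp3 (48 UMIs) were in the Cd4+ sum of SAT D-CAN alone. Ccl22, a chemokine that draws CCR4-bearing T cells, had 8 and 43 UMIs in Cd4+ cells and 0 in Cd8+ cells. In SAT, Ccl22 was also a leading gene of the dendritic-like cluster and S100a8 of the neutrophil-like cluster. Whether their UMIs here came from Cd4+ T cells was not tested.

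Clustering of SAT cells, made with the 10 genes left out, gave 4 clusters of T/NK-like cells, here described without a test. One of them held the highest level of each of the 9 genes other than Tigit: 70.7 CPM of Foxp3, 129.5 of Il2ra, 400.5 of Ctla4, 378 of Icos, 272 of Tnfrsf4, 221 of Tnfrsf18 and 35.9 of Pdcd1. Its leading genes were Ncr1, Xcl1, Ifng, Ikzf2, Icos, Klrk1, Cd160, Ctla4, Trdc and Cxcr6, several of them genes of NK and gamma-delta T cells, so it mixes Foxp3+ cells with others and is not a Treg cluster. It held 19 and 20 of the 32 and 45 Foxp3+ Cd3+ cells. The cluster led by Lef1 and Tcf7 carried 8.39 CPM of Foxp3, 67.1 of Ctla4 and 48.8 of Icos, and that led by Cd8b1 and Nkg7 carried 11.4, 97.1 and 89.7 CPM. The last, led by Bcl11b and Sidt1, had 0 Foxp3 UMIs. The genes whose level was most like that of Foxp3 over 11 sums of Cd3+ subsets and libraries were Serpinb1a (Pearson r = 0.987), Slc22a15 (0.971), Aldh2 (0.958), Nrp1 (0.948) and Raph1 (0.947), of 6451 genes. The sums share libraries and differ in depth, so the r is a description only.

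Outside T cells the genes fell into those kept to T cells and those shared. In SAT, 82.9% and 86.1% of the cells with Icos and 77.1% and 84.3% of those with Ctla4 were Cd3+, but only 51.8% and 59.0% of those with Il2ra. Tnfrsf18 was also in 41 and 53 B cell-like cells and Tnfrsf4 in 33 and 15 dendritic-like cells. In the tumor, Tnfrsf4 was in 11 of 1126 and 4 of 613 cancer-like cells, and Lag3 in 6 and 5 of them. These few cells lay in the deepest class, with a median of 12081 and 19857 UMIs, and a background share was not set against them. The tumor macrophage-like class, which holds the Cd3+ cells, had 16 and 22 Tnfrsf4 UMIs, of which 4 and 8 were in cells without a Cd3 UMI.

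**Figure D4:**
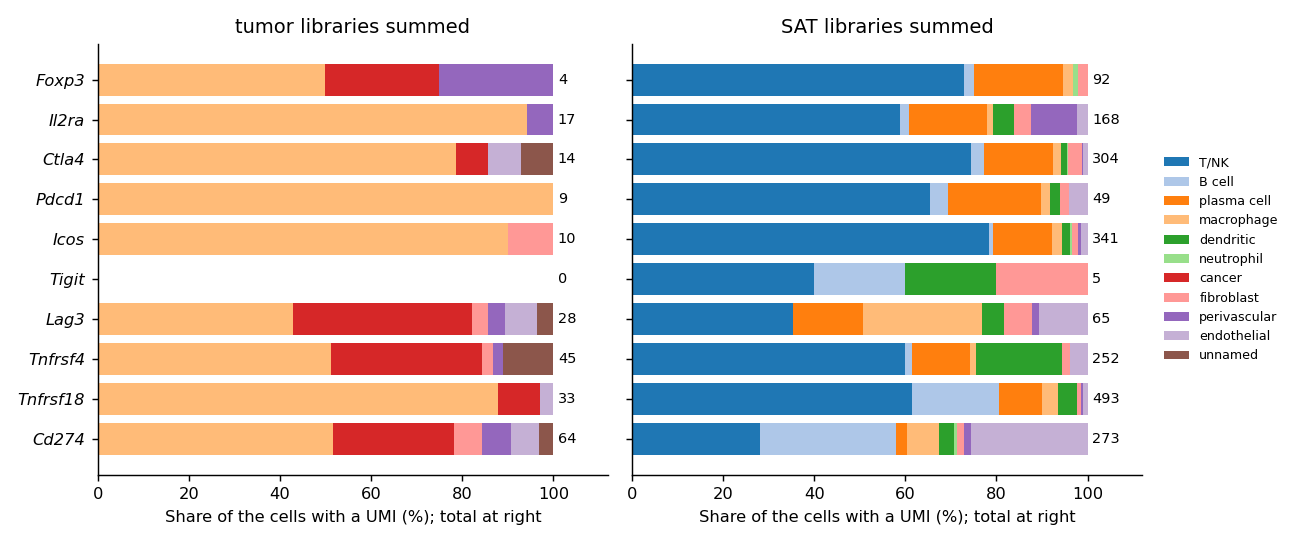
Cells with at least 1 UMI of each gene, as the share that lies in each cell class (x axis, percent), with their total number at right. Control and D-CAN libraries are summed for tumor and for SAT. In SAT the T/NK-like class holds most cells of Ctla4 and Icos, and Tnfrsf18 and Cd274 extend to B cell-like cells. The tumor macrophage-like class includes the tumor Cd3+ cells, and the class named plasma cell is a cycling mixed lymphocyte cluster.

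Cd274 had the widest spread over cell types. Over all cells it was in 31, 33, 118 and 155 cells, at 1.95, 2.43, 21.6 and 25.4 CPM in tumor control, tumor D-CAN, SAT control and SAT D-CAN, so both SAT libraries lay above both tumor libraries. Only 25.4% and 30.3% of the SAT cells with Cd274 were Cd3+. The classes were named from marker genes, and the cancer-like clusters rest on markers that include Cldn3, Krt8 and Cldn4, since Epcam, Krt18, Cldn7 and Cdh1 were at or near 0 in them.

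Among classes with more than 3 Cd274 UMIs in each SAT library, the level was highest in SAT endothelial-like cells, with 38.1 CPM (27.7 to 51.2) in control and 58.8 CPM (44.8 to 75.9) in D-CAN. SAT B cell-like cells had 30.6 and 27.3 CPM, SAT dendritic-like cells 29.03 and 22.2, and SAT T/NK-like cells 17.2 and 19.5. Macrophage-like cells had 18.9 and 38.6 CPM in SAT and 22.2 and 11.6 CPM in the tumor. Endothelial-like cells of the tumor had Cd274 in 0 of 101 cells of control, which allows a share of cells with a UMI of up to 2.97% at a median of 1897 UMIs per cell, and in 4 of 67 cells of D-CAN (13.7 CPM). Fibroblast-like cells were low in every library (2.38, 6.65, 3.58 and 4.41 CPM), and perivascular-like cells measured 5.55, 9.82, 12.8 and 0 CPM, all on 5 UMIs or fewer. Between SAT macrophage-, B cell- and dendritic-like cells the values of the 2 libraries interleaved, so their order was not resolved.

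Cancer-like cells carried the least Cd274 of the classes in which it was seen in both tumor libraries. Cd274 was in 5 of 1126 cells of tumor control (0.444%) and 12 of 613 of tumor D-CAN (1.96%), or 0.359 CPM (0.117 to 0.838) and 1.13 CPM (0.618 to 1.90). These cells were the deepest, with a median of 12081 and 19857 UMIs, and at 1000 UMIs per cell the shares were 0.178% and 0%. The tumor macrophage-like cells, at 22.2 and 11.6 CPM, lay above the cancer-like cells of both libraries.

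**Figure D5:**
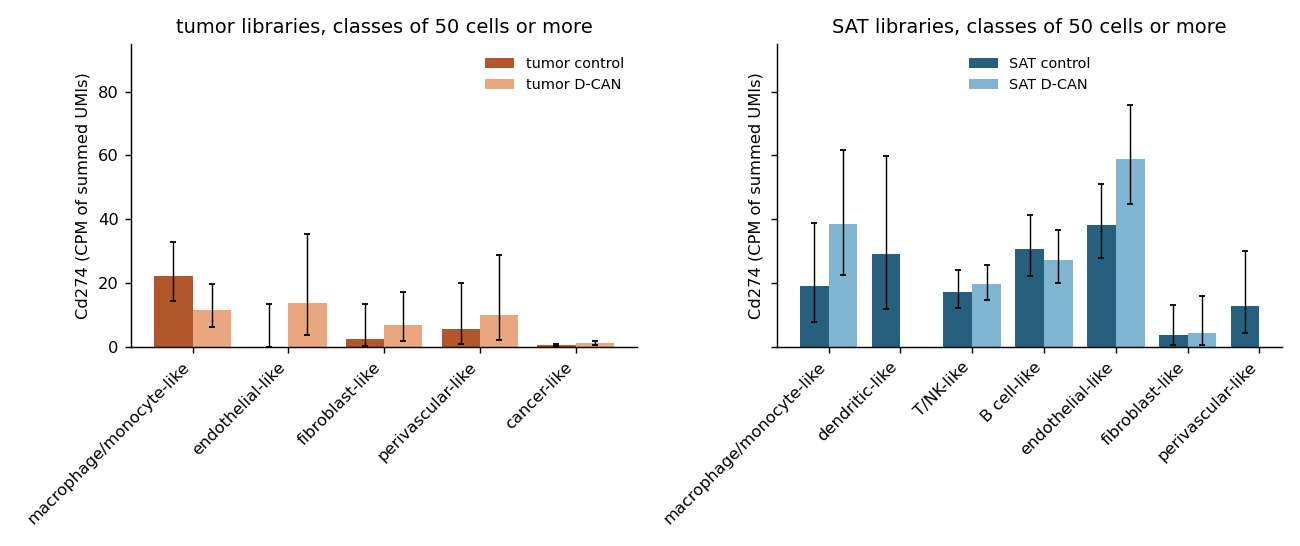
Cd274 level (y axis, CPM of summed UMIs) by cell class and library, with 95% exact Poisson intervals that cover counting error only. SAT endothelial-like cells reach 58.8 CPM in D-CAN, and cancer-like cells stay near 1 CPM.

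Shares of Cd274+ cells changed once depth was made equal. In macrophage-like cells they were 3.28% (21 of 641) and 2.81% (12 of 427) in the tumor and 4.79% (7 of 146) and 17.1% (12 of 70) in SAT, where the median cell had 1455, 2143, 1167.5 and 4516 UMIs. At 1000 UMIs per cell the shares were 2.17%, 1.44%, 3.66% and 3.33%. In SAT endothelial-like cells 5.35% (30 of 561) and 23.5% (40 of 170) became 4.18% and 8.50%. Their median cell had 1023 UMIs in control and 4235.5 in D-CAN.

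Myeloid cells of the tumor and of SAT were compared over summed macrophage-like cells. The edgeR quasi-likelihood test with Benjamini-Hochberg adjustment called 1530 of 10340 genes (14.8%), 742 higher (7.18%) and 788 lower (7.62%) in tumor. Cd274 was not called (-0.76 ± 0.46, SE, edgeR adjusted p = 0.297), and without SAT D-CAN its value was -0.13. Lag3 was called, as 1 of the 8 genes tested, which is near the 14.8% called over all genes. It had 8, 5, 9 and 15 UMIs, or 7.10, 4.45, 24.3 and 34.1 CPM, and its log2 fold change (tumor over SAT) was -2.27 ± 0.58 (edgeR adjusted p = 0.00156). The tumor class holds T cells, but of its Lag3 UMIs 8 of 8 and 3 of 5 were in cells without a Cd3 UMI, and with cells that had a Cd3 UMI left out the value was -2.56 (edgeR adjusted p = 0.000393). The call was lost with DESeq2 (-2.30, adjusted p = 0.168) and when either SAT library was left out (-2.49, edgeR adjusted p = 0.0629 without SAT control, and -2.01, 0.220 without SAT D-CAN), at fold changes of about the same size.

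Other genes of the class showed what it held. Il2ra (2.16, edgeR adjusted p = 0.151) had 11 and 14 UMIs in the tumor class, of which 4 and 4 were in cells without a Cd3 UMI. The highest genes in tumor were Arg1 (arginase, 790 and 849 UMIs against 0 and 0), Lcn11, Camp, Spp1 and Fgb. Lcn11 (267 and 102 UMIs in the tumor class) and Fgb (212 and 100) were also among the leading genes of cancer-like clusters. Whether their UMIs in this class came from macrophages was not tested. Spp1 (osteopontin) had 2666 and 4308 UMIs against 1 and 2. The lowest were Mcpt4, Cma1, Cpa3 and Tpsb2, genes of mast cells, which had 127, 124, 71 and 48 UMIs in SAT D-CAN and 0 in the other libraries, and Pax5, a B cell factor. Without SAT D-CAN only 55 genes were called in this comparison, in place of 1530, and whether Lag3 shares a source with the mast cell or B cell genes was not tested.

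Among the ligands around PD-L1, 3 of 11 were higher in tumor macrophage-like cells and 0 lower: Cd276 (B7-H3) with 17 and 16 UMIs against 0 and 0, Lgals3 (galectin-3) by 1.88 and Lgals9 (galectin-9, a ligand of TIM-3) by 1.21. Of the further checkpoint and exhaustion genes 1 was higher (Vsir, 0.69) and 7 of 14 were lower, including Nr4a1, Nr4a2, Nr4a3 and Cd200. Without TMM factors 0 of these were higher and 7 lower, and of the ligands 3 were higher and 1 lower. Of the interferon-gamma response and PD-L1 control genes, Cxcl10, an interferon-induced chemokine, was higher (0.95) and Nfkb1, an NF-kappaB subunit, lower (-1.26). The genes whose level was most like that of Cd274 over 26 sums of class and library were Ier5 (Pearson r = 0.860), Zfp36 (0.844), Klhl24 (0.827), H2-T23 (0.820) and Arf6 (0.813), of 12824 genes. The sums of a library share its depth, so this too is a description.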

How the data were processed

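Per the labels, single-cell 3′ libraries were made with a 10x kit and processed with Cell Ranger 3.1.0 and STAR 2.6 on mm10. The headers of the deposited matrices name both Cell Ranger 3.0.2 and 3.1.0. With 1 library per group, a difference by version cannot be told apart from the group. The deposited values were raw UMI counts per gene and cell, with no normalization by the authors beyond the collapse of reads to UMIs. Cells with at least 200 genes were kept. Cd3+ cells had at least 2 UMIs over Cd3d, Cd3e and Cd3g, and a subset was Cd4+ or Cd8+ by at least 1 UMI of Cd4, or of Cd8a or Cd8b1. Each tissue's libraries were clustered together in Seurat 5.3.0 (10 principal components, resolution 0.8), with the 10 genes left out of the variable genes. No mitochondrial limit was set for the clustering, and cells up to 20% mitochondrial were an alternative for the shares. A cluster was named from at least 3 marker genes. Each library shared between 2 and 4 of its cell barcodes with any of the other libraries. Scrublet called 16 of 9128 cells doublets and was taken not to have worked, so no cell was removed, and leaving out the 178 cells of highest score was an alternative.

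Shares have exact Clopper-Pearson and levels exact Poisson intervals, at 95%, and a count of 0 is given a limit of 3 counts. UMIs were summed per library and population, and sums with at least 10 UMIs per gene over them were fitted in edgeR 4.0.16 (quasi-likelihood, TMM, 1 residual degree of freedom, adjusted p under 0.05). The prior degrees of freedom were infinite in each fit, so each p rests on a variance shared over genes and not on a gene's own spread. In the Foxp3+ and Cd8+ fits the library was a block, so differences between libraries were taken out. On simulated counts with 200 genes changed by 2 on the log2 scale, this fit called 92 with the right sign for Foxp3+ against Foxp3- cells, 125 for Cd8+ against Cd4+, 137 for macrophage-like cells and 40 for D-CAN against control. For tumor against SAT in Cd3+ cells it called only 3, beside 5 unchanged genes, and shifted deep unchanged genes by -0.89. Without TMM factors it called 5, beside 0 unchanged genes, with a shift of -0.15. The edgeR mode was chosen by this recovery after the calls of both modes had been seen. The simulated counts were drawn with a dispersion shared over all genes, as the fit itself assumes. The recovery therefore does not test how the fit treats genes with a larger spread of their own, such as those driven by 1 library. Recovery values of the newer mode are not given here. The alternatives were no TMM factors, DESeq2 1.42.0, other minimums, gates and depths, and left-out libraries. Genes named outside the 10 were the 5 highest and 5 lowest called genes per comparison, leaving out mitochondrial, ribosomal, immunoglobulin and T cell receptor segment genes, with members of gene lists and the genes most like Foxp3 or Cd274. Genes, lists and tests were chosen with earlier results of these data known. Gene positions are those of GENCODE vM21.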

Additional observations from a re-analysis of the deposited data

Results flagged for a closer look

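In 3 cases a gene with enough counts moved in opposite directions in the libraries compared, and none of these differences was tested, since each side is 1 library or 1 pair of libraries. The Lag3 log2 ratio of Cd8+ to Cd4+ cells was 1.24 in SAT control, from 17 and 4 UMIs, and -1.22 in SAT D-CAN, from 5 and 7 UMIs. The Il2ra log2 ratio of D-CAN to control in Cd3+ cells was 0.055 in tumor and -0.43 in SAT. The Tnfrsf4 log2 ratio of D-CAN to control was -0.17 in tumor and 0.41 in SAT. Only genes with more than 3 UMIs in each sum were compared, so Pdcd1, Icos and Cd274 in Cd3+ cells, with 1 or 2 UMIs in tumor control, were not. With 1 library per group any opposite signs among the genes compared are listed, and the tumor intervals of -1.63 to 1.95 for Il2ra and -1.63 to 1.42 for Tnfrsf4 hold both SAT values.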

How the results depend on the processing

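The T cell values of the tumor rest on 9 and 14 cells, and each group on 1 library. No paired analysis was possible because the groups share only replicate number 1, the only one in each, so libraries cannot be paired by number. The Foxp3+ and Cd8+ comparisons instead pair 2 populations within each library. Left-out libraries in the Foxp3+ and Cd8+ comparisons leave 1 library per arm pair, a value with no test. The newer edgeR fit, the T/NK-like clusters at 20 components and the macrophage-like cells without a Cd3 UMI were added after seeing the data. The cause of the changes below was not tested, unless fewer cells, genes or UMIs enter by construction.

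Of the recomputed shares, 106 stayed within their interval and 28 moved. Foxp3 in tumor D-CAN was 0% with at least 500 genes and after thinning to 1000 or 2000 UMIs. Thinned to 500 and 1000 UMIs it was 1.58% and 2.05% in SAT control, and 1.64% and 3.13% in SAT D-CAN, with 3.54% at 2000. Pdcd1 in tumor control was 0% with a gate of 3 Cd3 UMIs and after thinning to 1000 or 2000, and 0% in tumor D-CAN at 500. It was 0.632% and 1.88% at 500 and 1000 in SAT control, and 0%, 0.469% and 1.01% at 500, 1000 and 2000 in SAT D-CAN. Cd274 in macrophage-like cells was 0.624%, 0.703%, 0% and 4.29% at 500 UMIs in tumor control, tumor D-CAN, SAT control and SAT D-CAN, and 1.44% and 3.33% at 1000 in tumor D-CAN and SAT D-CAN. In cancer-like cells it was 0% in both libraries at 500, 0.0903% at 2000 in tumor control, and 0% and 0.329% at 1000 and 2000 in tumor D-CAN.

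Counts of genes called moved by over 1.5 times in 27 recomputed cases and stayed within that in 31. Tumor against SAT in Cd3+ cells (302) gave 167 without TMM factors (109 higher and 58 lower, against 22 and 280), 0 in the newer edgeR fit, 178 in DESeq2, 557 with tissue alone as a term, 155 with a gate of 1 and 155 with a gate of 3 Cd3 UMIs, and 103 to 325 with a library left out. Without tumor control Pdcd1 (2.80, edgeR adjusted p = 0.0384) and Tnfrsf18 (1.39, 0.0266) were called, and with tissue alone Il2ra (1.51, 0.0372) and Pdcd1 (2.39, 0.0165). D-CAN against control (18) gave 0 in the newer fit, in DESeq2 and with a gate of 1, 10 within leukocyte clusters, and 0 to 48 with a library left out. Foxp3+ against Foxp3- (583) gave 79 in the newer fit, 215 in DESeq2 and 63 in Cd4+ cells only, and its split of 197 higher and 386 lower became 599 and 191 without TMM factors. Cd8+ against Cd4+ (615) gave 319 with at least 30 UMIs, 180 in DESeq2 and 151 without the cells of highest doublet score, and its split of 309 and 306 became 194 and 557 without TMM factors. Without TMM factors Pdcd1 and the other calls of the 10 genes held there. In DESeq2 Tnfrsf18 was not called (adjusted p = 0.116), nor was Pdcd1 in edgeR with at least 30 UMIs (adjusted p = 0.0735). Macrophage-like cells (1530) gave 923 in the newer fit, 418 in DESeq2 and 55 to 882 with a library left out.

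Of the recomputed fold changes of the 10 genes, 455 kept their direction and call, 10 lost a call, 7 gained one and 35 changed sign, none of these 35 of a called gene. In tumor against SAT these were Ctla4 (0.64 without TMM factors; -0.97 to 0.094 with a library left out), Lag3 (-6.53 with a gate of 3; -7.02 to 1.74) and Cd274 (-0.72 and -0.47 with gates of 1 and 3; -0.077 to 0.50). In D-CAN against control a gate of 1 gave 0.28 for Il2ra, 0.28 for Pdcd1 and 0.43 for Icos, and Icos was 0.00087 in the newer fit, 0.075 in DESeq2 and 0.068 with a gate of 3. With a library left out the D-CAN values ranged from -0.47 to 7.47 for Foxp3, -0.88 to 0.94 for Il2ra, -0.78 to 2.01 for Pdcd1, -0.51 to 1.15 for Icos, -0.69 to 6.11 for Lag3, -0.30 to 0.77 for Tnfrsf4, -0.072 to 1.21 for Tnfrsf18 and -0.43 to 0.29 for Cd274. In Foxp3+ against Foxp3- cells, Cd4+ cells only gave -1.45 for Pdcd1, -4.80 for Lag3 and -0.027 for Cd274. In Cd8+ against Cd4+ cells Lag3 ranged from -1.22 to 1.24, and Cd274 was 0.00044 with a gate of 3. In macrophage-like cells Tnfrsf18 ranged from -1.01 to 0.31.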
